A study of Mus musculus with 564 samples.

Results

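Omipalisib, PF04691502, BGT226, Apitolisib and AZD2014 are the clinical kinase inhibitors (CKIs) of the panel that were designed against MTOR, either alone (AZD2014) or together with the PI3K lipid kinases (the other members). All libraries whose column name began with 1 of these 5 names were taken, which gave 47 of the 564 libraries: 9 of Omipalisib, 10 of PF04691502, 9 of BGT226, 10 of Apitolisib and 9 of AZD2014. The series used ChIP-seq for H3K27ac, the acetyl mark on histone H3 that active enhancers and promoters carry, in bone marrow-derived macrophages (BMDMs) of wild type male C57/BL6 mice aged 6 to 8 weeks under 58 CKIs or the vehicle DMSO. Cells were pre-treated for 1 h and then given 10 ng/mL LPS, a bacterial ligand of TLR4, or 10 ng/mL IL-4 for 30 min, 1 h, 2 h or 4 h, or left untreated (UT). The 5 compounds had 20 LPS, 21 IL-4 and 6 UT libraries, set beside 499 libraries of the 53 other CKIs and 18 of DMSO. Each compound had 1 library per stimulus and time, except PF04691502 after 30 min of IL-4 and Apitolisib in UT, which had 2. The labels do not tie libraries to animals or cultures.

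PI3K makes a membrane lipid that recruits the kinase AKT, and AKT in turn activates the mTORC1 complex, which holds the kinase MTOR. Active AKT keeps FOXO transcription factors out of the nucleus, mTORC1 keeps the lysosomal factors TFEB and TFE3 in the cytoplasm, and mTORC1 promotes the processing of SREBP, the factor that turns on sterol and fatty acid synthesis. In macrophages the pathway is known for its part in growth, in metabolism and in the response to TLR4 and IL-4.

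Every CKI was used at the half-maximal effective concentration for the kinase it was chosen to hit, and that kinase was not MTOR or a PI3K for any of these compounds: Omipalisib was intended for IRAK3, PF04691502 for CSNK2A2, BGT226 for CLK1, Apitolisib for JAK1 and AZD2014 for PFKP. Concentrations therefore differed, from Omipalisib, the highest, through PF04691502, AZD2014 and BGT226 to Apitolisib, the lowest. For this reason 0 pairs of these compounds were tested against each other, and their values are set side by side. Of those with a published name, Omipalisib is a quinoline with a pyridazine and an aryl sulfonamide, and Apitolisib a thienopyrimidine with a morpholine.

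The promoters of genes whose H3K27ac the results turn on are shown first. They are from RefSeq (assembly GRCm38.p6), run 5′ to 3′ on the strand of the gene from 250 bases before to 50 after its start, and each lies inside the cis-regulatory element (CRE) that was measured. Capitals mark the sterol response element in the form TCACNCCAC, a site SREBP binds, and the CCAAT box (CCAAT, or ATTGG where it lies on the other strand), the site of the factor NF-Y. Both strands were searched, and 1.24% of 32851 mouse promoters of this length held the sterol response element and 37.4% the CCAAT box. Hmgcs1 encodes the cytosolic HMG-CoA synthase, and its promoter (chr13:119690101-119690400, + strand) held 1 sterol response element, TCACCCCAC, from base 114, and 4 CCAAT boxes. Idi1, an isomerase of the mevalonate pathway (chr13:8885356-8885655, + strand), held 2 CCAAT boxes. Cyp51, the lanosterol demethylase (chr5:4104648-4104947, - strand), held 1, and Hsd17b7, a sterol reductase (chr1:169969156-169969455, - strand), held 3. The exact string TCACNCCAC was found in the Hmgcs1 window alone: those of Idi1, Cyp51 and Hsd17b7, and of Acly and Srebf2, other called SREBP genes with an entry, held 0. Variant forms of the SREBP site were not searched.
Hmgcs1: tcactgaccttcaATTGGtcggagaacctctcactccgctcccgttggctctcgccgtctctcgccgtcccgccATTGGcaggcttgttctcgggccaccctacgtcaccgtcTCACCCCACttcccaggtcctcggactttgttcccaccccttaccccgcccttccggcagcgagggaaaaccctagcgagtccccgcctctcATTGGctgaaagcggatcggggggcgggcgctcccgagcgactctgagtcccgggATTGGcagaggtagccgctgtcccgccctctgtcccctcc
Idi1: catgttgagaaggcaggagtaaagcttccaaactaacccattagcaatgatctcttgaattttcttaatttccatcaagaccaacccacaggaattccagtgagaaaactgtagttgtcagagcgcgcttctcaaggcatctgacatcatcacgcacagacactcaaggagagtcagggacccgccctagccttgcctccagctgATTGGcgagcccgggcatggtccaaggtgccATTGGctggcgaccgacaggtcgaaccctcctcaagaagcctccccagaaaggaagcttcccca
Cyp51: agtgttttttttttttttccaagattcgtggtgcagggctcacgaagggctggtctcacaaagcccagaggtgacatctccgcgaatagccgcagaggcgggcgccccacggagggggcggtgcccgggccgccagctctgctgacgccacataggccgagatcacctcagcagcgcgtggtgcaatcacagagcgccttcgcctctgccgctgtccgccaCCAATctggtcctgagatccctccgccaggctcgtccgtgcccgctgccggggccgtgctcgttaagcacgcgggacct
Hsd17b7: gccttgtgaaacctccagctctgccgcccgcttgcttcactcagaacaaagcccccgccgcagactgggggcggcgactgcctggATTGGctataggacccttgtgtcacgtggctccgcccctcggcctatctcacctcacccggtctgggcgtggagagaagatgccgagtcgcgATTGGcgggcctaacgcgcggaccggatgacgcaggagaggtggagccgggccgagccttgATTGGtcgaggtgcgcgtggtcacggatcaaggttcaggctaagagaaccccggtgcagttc

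In the Ccnd3 promoter (chr17:47504801-47505100, + strand), capitals mark the motif TGTTTAC, bound by FOXO and other forkhead factors, which began at base 8 and which 3.65% of the promoters held. Ccnd3 encodes cyclin D3, and its CRE was among the largest rises in UT libraries of these inhibitors. The other promoters searched for this motif, among them those of Ulk1, Ddit4, Inpp5d and Gpnmb, held 0. The called FOXO targets Fbxo32 and Klhl24 had no entry to search. Binding of FOXO at Ccnd3 was not tested.
Ccnd3: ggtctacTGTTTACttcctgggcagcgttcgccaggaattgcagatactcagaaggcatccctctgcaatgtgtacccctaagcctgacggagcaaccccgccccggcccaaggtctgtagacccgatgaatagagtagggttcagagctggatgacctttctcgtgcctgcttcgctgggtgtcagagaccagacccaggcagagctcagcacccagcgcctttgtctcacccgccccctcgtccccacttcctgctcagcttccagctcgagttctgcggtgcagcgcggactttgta

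Values are normalized read counts per CRE, rounded to whole numbers, and all differences are on the scale of log2(value + 5). The main comparison set the mean of the 5 compounds against the mean of the 53 other CKIs at the same stimulus, on 1 value per compound, with limma across all CREs and Benjamini-Hochberg adjustment over all of them; a CRE was called at an adjusted p under 0.05. Its n is 5 compounds against 53, so its p-values measure the spread between compounds. A gene is represented by the CRE over its transcription start.

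Some facts of the libraries bear on every result. Depth was estimated from the spacing of the scaled values, since 1 read is worth a fixed amount in a library: by this estimate the 47 libraries had 507683 to 6908612 reads in CREs (median 1395499), against a median of 1951672 for the other CKIs. The estimate is less sure in 3 BGT226 libraries, where 1 read came to under 1.4, and the highest of the others was 3174568. Contrast, the median of the strongest over that of the weakest 10% of CREs, ranged from 5.21 to 67.2 in these libraries (median 12.8), with a median of 18.0 in the other CKIs and of 75.1 in DMSO. All LPS libraries of Omipalisib (5.21 to 7.56) and AZD2014 (6.42 to 8.28) were low in contrast, as was PF04691502 at 30 min of LPS (5.35), and the lowest library of the other CKIs had 3.34. In the column order of the table, CKIs fall into 6 runs: Omipalisib and AZD2014 in run 1, PF04691502 in run 2, BGT226 in run 3 and Apitolisib in run 6, with DMSO outside them. The cells carried the mark at macrophage genes. The highest medians over the 47 libraries were 1281 at Csf1r, 1145 at Cd68 and 978 at Spi1, and others were lower, such as 336 at Itgam, 221 at Mertk and 118 at Cx3cr1. Of 23 markers of other cell types, 19, among them Cd3e, Pax5 and Ly6g, had no CRE over their start. The other 4 (Camp, Cd34, Gata2 and Flt3) had medians of 28 to 51, with single libraries up to 218 at Camp and 194 at Cd34.

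After LPS, 1674 of 59167 CREs (2.83%) were called between these compounds and the other CKIs, 496 higher (0.838%) and 1178 lower (1.99%). In 410 of the higher and 881 of the lower CREs all 5 compounds lay on the same side of the median of the other CKIs. With a pseudocount of 1 the split was 19.4% higher of 1354. After IL-4, 459 of 59155 (0.776%) were called, 96 higher (0.162%) and 363 lower (0.614%), and after quantile normalization 41.2% of 342 were higher. In UT cells the counts were 1300 of 59086 (2.2%), 371 higher (0.628%) and 929 lower (1.57%). An absolute log2 difference over 0.5 was reached by 673 of the 1674 called CREs after LPS, 115 of 459 after IL-4 and 892 of 1300 in UT. Of those after LPS 403 were higher and 270 lower (59.9% higher), a split opposite to that of all LPS calls, whereas after IL-4 they were 23 higher and 92 lower, and in UT 231 and 661.

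These counts rested on single compounds. Without Omipalisib, limma called 16 CREs after LPS, 0 after IL-4 and 274 in UT. Leaving out AZD2014 gave 65 after LPS, and leaving out BGT226 gave 8 after IL-4. With the contrast of the libraries as a covariate 167 CREs were called after LPS, and with contrast and run together 1056.

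The LPS calls that were lower lay at promoters more often than the CREs tested: 47.5% of them overlapped a transcription start, against 18.6% of all CREs, and 5.07% of the 11034 start CREs were called lower. The median difference of all start CREs after LPS was -0.13, and it was -0.01 with run and contrast in the model. With contrast as a covariate the share of start CREs called lower after LPS was also smaller, as given below. The part of contrast in this promoter share was not tested further. After IL-4 0.68% and in UT 1.2% of start CREs were called lower. Higher calls at starts were 0.163%, 0.145% and 0.49% in LPS, IL-4 and UT. Counts for gene lists below are read against these shares.

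At some genes of sterol and fatty acid synthesis H3K27ac was lower under these inhibitors, and these calls needed Omipalisib, without which 0 of the list passed after LPS or IL-4. Of 28 such SREBP-controlled genes with a CRE over their start, 12 were called lower after LPS, 9 after IL-4 and 2 in UT, and 0 higher in any of the 3 conditions. The median log2 difference of the list was -0.33 after LPS, beside -0.13 for all start CREs, -0.27 after IL-4 beside -0.05, and -0.25 in UT beside -0.03. No list member had a positive difference after IL-4, and 3 had one after LPS. The list was chosen with earlier results of these data known.

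Among the falls after LPS were those at Idi1 (-0.60, SE 0.11, adjusted p = 0.0026), Hsd17b7 (-0.55, SE 0.11, adjusted p = 0.0041), Stard4, a sterol transfer protein (-0.55, SE 0.10, adjusted p = 0.0017), Cyp51 (-0.50, SE 0.10, adjusted p = 0.0054) and Hmgcs1 (-0.44, SE 0.11, adjusted p = 0.023). After IL-4 they included Idi1 (-0.60, adjusted p = 0.00082), Sqle, squalene epoxidase (-0.52, adjusted p = 0.020), Fdps, farnesyl diphosphate synthase (-0.52, adjusted p = 0.0013) and Hmgcs1 (-0.47, adjusted p = 0.011). In UT, Hsd17b7 fell by 0.84 (SE 0.20, adjusted p = 0.0072).

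At the Idi1 promoter CRE (chr13:8884738-8886749), LPS values at 30 min, 1 h, 2 h and 4 h were 139, 78, 47 and 64 with Omipalisib. AZD2014 gave 216, 173, 52 and 202, and BGT226 gave 227, 157, 147 and 128. These 3 compounds lay under the median of the other CKIs (256, 250.5, 222 and 241.5) at every time, and Omipalisib lay under their lowest value (141, 113, 126 and 107). PF04691502 gave 328, 249, 227 and 126, and Apitolisib 179, 172, 248 and 271. Both of these crossed the median of the other CKIs within the time course, and their Idi1 values stayed within the range of the other CKIs. The DMSO libraries had 328 and 388, 285 and 275, 274 and 275, and 300 and 270. The Omipalisib values at Idi1 after LPS stand for only 5 to 12 reads each, and the Apitolisib values for 29 to 64.

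After IL-4, Idi1 had 98, 92, 126 and 116 with Omipalisib. BGT226 had 152, 105, 131 and 150, and AZD2014 had 96, 161, 145 and 127, so that Omipalisib was the lowest from 1 h on and AZD2014 at 30 min. The median of the other CKIs was 187, 246, 245 and 241, above all 12 of these Idi1 values. Apitolisib, at 178, 161, 209 and 208, lay below that median too, and PF04691502 had 98 and 124 at 30 min and then 192, 263 and 236. In UT cells Idi1 had 126 with Omipalisib, 137 with PF04691502, 127 with BGT226, 193 and 223 with Apitolisib and 231 with AZD2014, beside 204 and 250 in DMSO. The fall of Idi1 after LPS and IL-4 passed the test under 11 of 12 alternative settings each, and not without Omipalisib.

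At Hmgcs1 (chr13:119689245-119691301) the same 3 compounds lay under the median of the other CKIs at every time, in another order. Omipalisib had 232, 235, 123 and 109 at the 4 times of LPS and 131, 143, 180 and 168 at those of IL-4. AZD2014 had 226, 214, 220 and 183 after LPS and 137, 141, 123 and 134 after IL-4, and BGT226 had 232, 222, 224 and 277, and then 144, 185, 198 and 247. The median of the other CKIs at Hmgcs1 was 346, 367, 288.5 and 312 after LPS and 232, 259.5, 261 and 302 after IL-4, above all 24 values of these 3 compounds. From 1 h of IL-4 on Hmgcs1 was lower with AZD2014 than with Omipalisib. The Hmgcs1 values stand for 12 to 30 reads with Omipalisib and 17 to 26 with AZD2014. Apitolisib had 241, 313, 300 and 271 after LPS and 257, 213, 285 and 263 after IL-4, on both sides of the median. PF04691502 had 328, 299, 263 and 155 after LPS, below the median at each time, and after IL-4 157 and 164 at 30 min and then 238, 285 and 233. DMSO ran from 313 to 487 at Hmgcs1 after LPS. The call at Hmgcs1 was made under 7 of 12 alternative settings after LPS and 9 after IL-4.

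**Figure D1:**
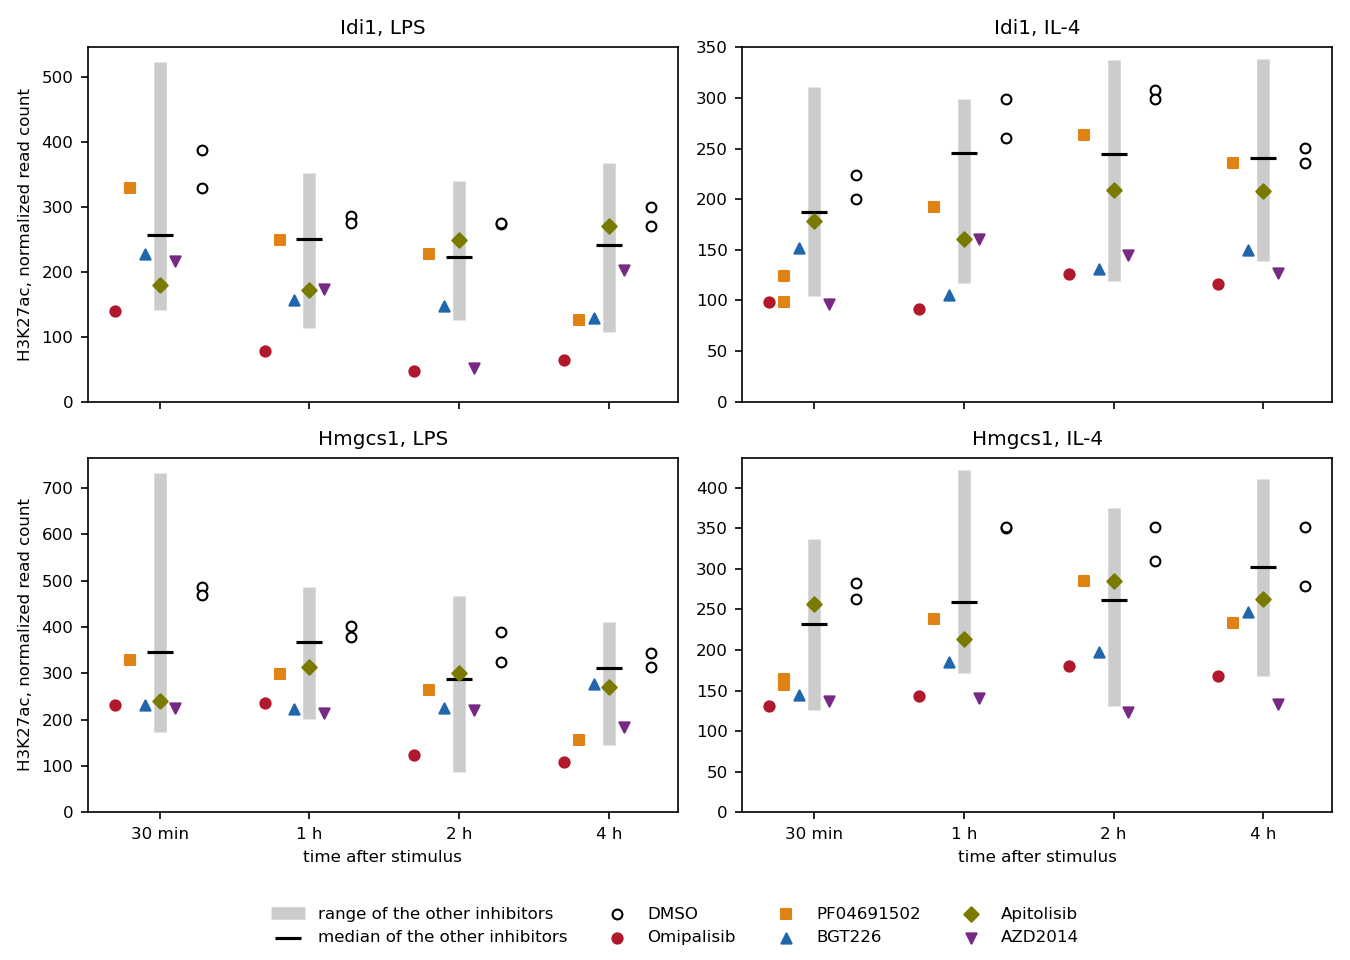
H3K27ac at the promoter CREs of Idi1 and Hmgcs1 (normalized read count, vertical axis) at each time after LPS or IL-4 (horizontal axis). Coloured points are single libraries of the 5 compounds, open points the DMSO libraries, grey bars the range and black lines the median of the other CKIs; after LPS, Idi1 with Omipalisib lies between 47 and 139, under the grey bar at every time.

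Taken one compound at a time against the 53 other CKIs (limma in 1 fit over all libraries of a stimulus, adjusted p under 0.05 and a log2 difference over 0.5 in size), 16 of the 28 SREBP genes were lower with Omipalisib after LPS, 11 with AZD2014, 4 with BGT226, 0 with PF04691502 and 0 with Apitolisib. In such a fit the time points of a compound, 1 library each, stand in for replicates, so its SEs and p-values do not hold the spread between compounds or between repeats of a compound. In the same fits 11.2% of all start CREs were called lower with Omipalisib, 20% with AZD2014, 0.961% with BGT226, 5.79% with PF04691502 and 0.0181% with Apitolisib. After IL-4 the counts were 14 with Omipalisib, 12 with BGT226, 7 with AZD2014, 1 with PF04691502 and 0 with Apitolisib, beside 5.56%, 2.64%, 3.06%, 0.852% and 0% of all start CREs. Against only the other CKIs of the same run, they were 13, 1 and 5 for Omipalisib, AZD2014 and BGT226 after LPS (2.37%, 2.86% and 1.45% of start CREs), and 10, 3 and 13 after IL-4 (1.89%, 0.707% and 2.9%). Against DMSO, 15 SREBP genes were lower with Omipalisib after LPS (25.1% of start CREs), 13 with AZD2014 (36.2%), 8 with BGT226 (8.37%), 4 with PF04691502 (24.3%) and 0 with Apitolisib (12.1%). After IL-4 the counts against DMSO were 16, 11, 13, 3 and 0 in the same order (11.3%, 9.21%, 4.27%, 1.8% and 3.44% of start CREs).

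The size of the difference was largest for Omipalisib at Idi1 after LPS (-1.57, SE 0.18; -1.45 within its run). BGT226 had its largest SREBP differences after LPS at Hsd17b7 (-0.87, SE 0.22; -0.97 within its run) and Stard4 (-0.71, SE 0.16; -0.82 within its run). All of these passed the test within the run as well, which uses the same libraries of the compound. Ranked by the list median less the median of all start CREs, Omipalisib was lowest of the 58 CKIs after LPS (-0.46) and IL-4 (-0.46), BGT226 followed (-0.34 and -0.46), and AZD2014 came at rank 4 in both (-0.20 and -0.29). PF04691502 was at rank 14 and 21, and Apitolisib at rank 28 and 22. In UT, Omipalisib was at rank 2 (-0.39), BGT226 at 4 (-0.32) and PF04691502 at 5 (-0.32), while AZD2014 (rank 27, -0.01) and Apitolisib (rank 33, 0.03) lay in the middle.

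**Figure D2:**
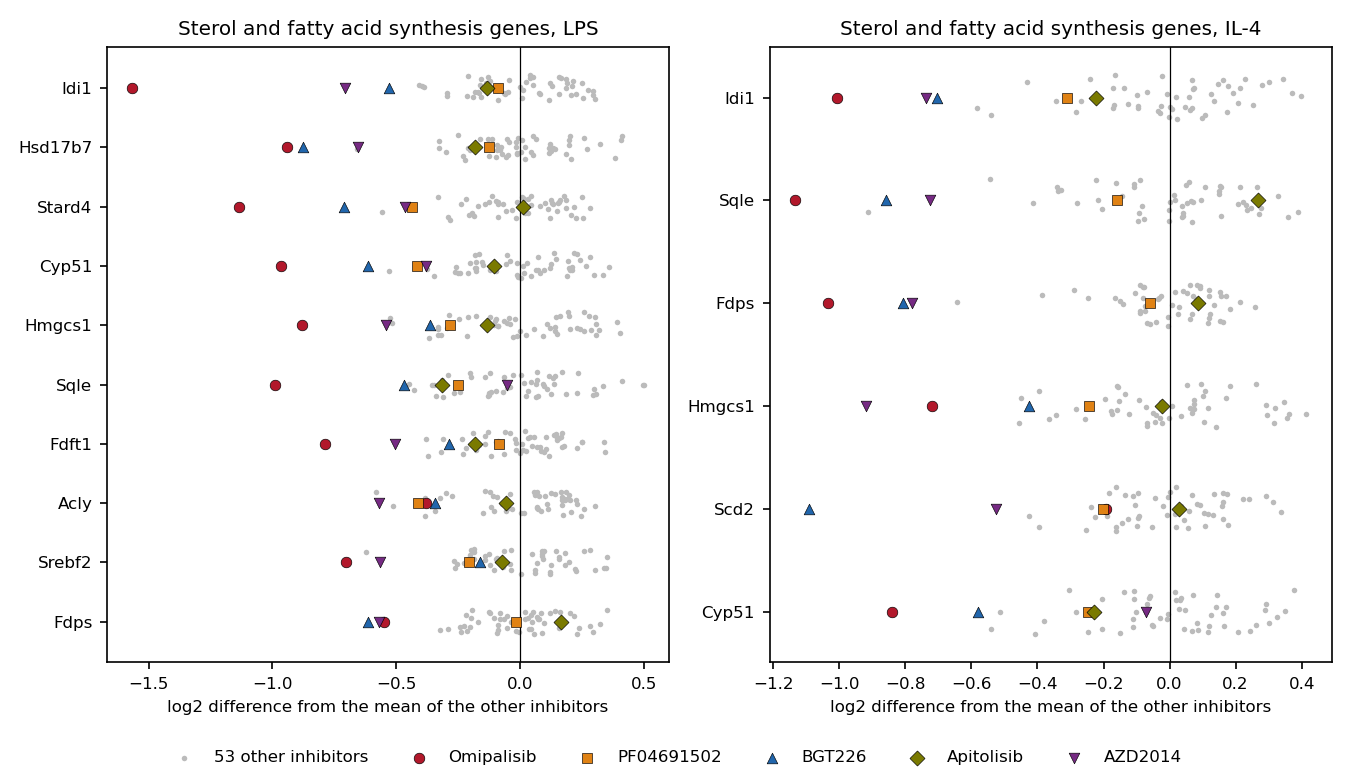
Log2 difference of each compound from the mean of the other inhibitors (horizontal axis) at SREBP genes called after LPS (left) and IL-4 (right). Grey points are the 53 other CKIs and coloured symbols the 5 compounds; Omipalisib lies farthest left at Idi1, at -1.57 after LPS.

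Without Omipalisib, where limma called 0 of the 28 SREBP genes after LPS or IL-4, 15 were lower at an unadjusted p under 0.05 after LPS, where 6.9% of all CREs were, and 17 after IL-4, where 2.79% were. The share of start CREs was not computed for this setting. In the main LPS test start CREs were called lower more often than all CREs (5.07% against 1.99%), so the 6.9% is not a like share. With the run, the contrast, or both in the model, 8, 5 and 6 of them were called lower after LPS, beside 2.3%, 0.471% and 1.69% of start CREs. After IL-4 they were 9, 10 and 10 (1.03%, 1.24% and 1.72%), and in UT 5, 3 and 5 (1.77%, 1.66% and 2.21%). Quantile normalization gave 10 after LPS, 6 after IL-4 and 1 in UT (4.85%, 0.353% and 0.789%). No SREBP gene was called higher in any of these 4 models.

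FOXO targets were measured by 27 genes. Fbxo32, an atrophy-linked ubiquitin ligase and a textbook FOXO target, was higher after LPS (0.52, SE 0.14, adjusted p = 0.034), after IL-4 (0.45, SE 0.11, adjusted p = 0.018) and in UT (0.82, SE 0.18, adjusted p = 0.0034). Klhl24 was higher after LPS (0.48, SE 0.11, adjusted p = 0.017) and in UT (0.61, SE 0.15, adjusted p = 0.010). The other FOXO targets did not pass the test, and 0 were called lower. Fbxo32 passed under 6 of the 12 alternative settings after LPS, 9 after IL-4 and 11 in UT. List medians were -0.01 after LPS, 0.08 after IL-4 and 0.17 in UT, above those of all start CREs (-0.13, -0.05 and -0.03).

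At the Fbxo32 start (chr15:58214266-58216164), UT libraries had 291 with Omipalisib, 256 with PF04691502, 265 with BGT226, 188 and 184 with Apitolisib and 228 with AZD2014. DMSO had 168 and 164, and the 53 other CKIs ran from 39 to 253 with a median of 135. All 6 UT libraries of these inhibitors thus exceeded both DMSO libraries and the median of the other CKIs at Fbxo32. After LPS Omipalisib had 197, 179, 132 and 54, and AZD2014 138, 91, 42 and 29, beside medians of 69, 59, 52 and 54 in the other CKIs. BGT226 had 85, 71, 129 and 88, Apitolisib 74, 104, 117 and 72, and PF04691502 66, 51, 52 and 58. These LPS values at Fbxo32 stand for few reads, 6 to 17 with Omipalisib, 3 to 14 with AZD2014 and 4 to 11 with PF04691502, so no order of times is read from them. After IL-4 Fbxo32 ranged from 121 to 362 in these libraries, and from 99 to 178 in DMSO.

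The PI3K, AKT and mTOR genes themselves showed few calls. Of 42 pathway components, Inpp5d, a lipid phosphatase that removes the PI3K product, fell after LPS (-0.35, SE 0.10, adjusted p = 0.035), Ddit4, an inhibitor of mTORC1, fell after IL-4 (-0.47, SE 0.09, adjusted p = 0.0067), and Ulk1, the kinase that starts autophagy, rose in UT (0.55, SE 0.13, adjusted p = 0.0084). At Ulk1 the UT values were 471 with Omipalisib, 461 with PF04691502, 527 with BGT226, 400 and 339 with Apitolisib and 430 with AZD2014. These Ulk1 values all exceeded those of DMSO (275 and 304) and the median of the other CKIs (317).

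Lysosome and autophagy genes under TFEB and TFE3 set BGT226 apart in the single fits. For the group, Gpnmb, a lysosomal glycoprotein, was higher after LPS (0.46, SE 0.14, adjusted p = 0.046) and Gabarapl1, an autophagosome protein, in UT (0.43, SE 0.12, adjusted p = 0.032), of 36 genes each. For BGT226 against the 53 other CKIs, 12 of the 36 were higher after LPS, where 1.39% of start CREs were, and 12 after IL-4, where 1.91% were. Against the other CKIs of its run alone these counts were 10 and 11 (1.31% and 2.01% of start CREs), and against DMSO 9 and 13 (9.57% and 7.46% of start CREs). With AZD2014, 9 of the 36 were lower after LPS, where 20% of start CREs were, and 0 higher. The genes below were chosen after their values were seen.

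With BGT226 Gpnmb was higher by 1.46 after LPS (SE 0.21, adjusted p = 1.65e-07) and by 1.00 after IL-4 (SE 0.15). Psap, the precursor of the saposins, was higher by 0.94 after LPS (SE 0.16, adjusted p = 1.95e-05) and by 0.61 after IL-4. After LPS and IL-4, Rragc, a GTPase that brings mTORC1 to the lysosome, was higher by 0.82 and 0.79. Sqstm1, an autophagy receptor, was higher by 0.62 and 0.76, and Fnip2, a partner of folliculin, by 0.86 and 0.89. The others called after both stimuli were Naglu, Gla, Fnip1, Ctsd and Gabarapl1.

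The BGT226 values at Gpnmb (chr6:49035121-49037375) were 275, 456, 476 and 701 through the LPS time course, while the median of the other CKIs went from 264 to 153.5, 102 and 176. DMSO had 254 and 313 at 30 min and 187 and 217 at 4 h. From 1 h on BGT226 thus lay above the highest of the other CKIs (276, 214 and 331), and at 30 min below it. Omipalisib had 394, 335, 245 and 417 at Gpnmb, also above that range from 1 h on, and PF04691502 (328, 129, 62 and 116), Apitolisib (204, 159, 136 and 102) and AZD2014 (216, 239, 188 and 125) stayed within it. Sqstm1 with BGT226 had 1284, 1264, 1382 and 1528 after LPS, beside medians of 1494, 1209.5, 598.5 and 576.5 for the other CKIs, so BGT226 and they parted from 2 h on. At Psap the 4 h values after LPS were 1629 with BGT226, 635 with Omipalisib, 552 with PF04691502, 491 with Apitolisib and 423 with AZD2014, against 801 and 807 in DMSO.

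By list median BGT226 was the highest of the 58 CKIs for TFEB genes in LPS (0.41), IL-4 (0.42) and UT (0.30), and the highest of the 53 other CKIs reached 0.27, 0.20 and 0.29. Omipalisib was at rank 6, 7 and 7 from the highest, whereas Apitolisib (ranks 54, 47 and 57) was among the lowest. For FOXO targets Omipalisib was highest after LPS (0.20), BGT226 after IL-4 (0.26) and AZD2014 in UT (0.28).

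**Figure D3:**
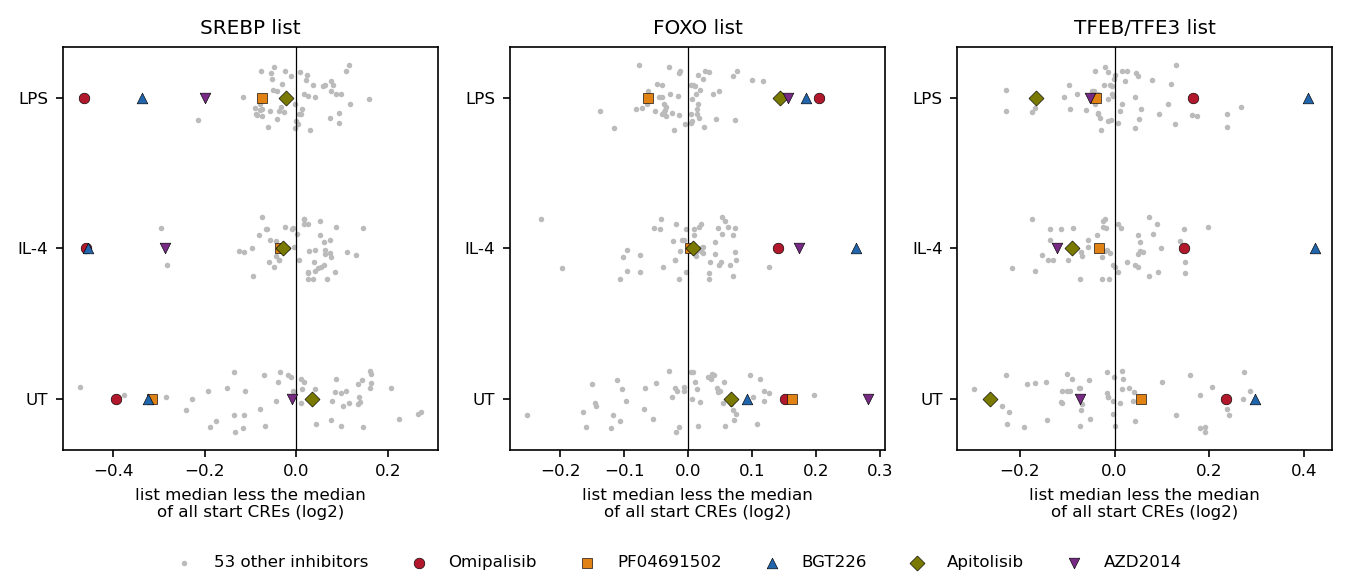
Median log2 difference of a gene list less the median of all start CREs (horizontal axis) for every CKI in LPS, IL-4 and UT. Grey points are the 53 other CKIs and coloured symbols the 5 compounds; for TFEB genes BGT226 lies farthest right, at 0.41, 0.42 and 0.30.

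Genes of glycolysis and the factor HIF1, another branch known to follow mTORC1, were lower after LPS: 6 of 24 were called, namely Pgk1 (-0.54, SE 0.12, adjusted p = 0.0070), Gapdh (-0.52, SE 0.11, adjusted p = 0.0075), Eno1 (-0.45, adjusted p = 0.016), Pkm (-0.39, adjusted p = 0.029), Hk2 (-0.37, adjusted p = 0.043) and Aldoa (-0.33, adjusted p = 0.047). The list median was -0.27, with -0.13 over all start CREs. Pgk1 and Pkm were also called lower after IL-4 (-0.39 and -0.30), and Pkm in UT (-0.26). With contrast as a covariate 0 of the 24 genes passed after LPS, and the part of contrast in this result was not tested further.

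In this list the compounds did not follow the order seen at sterol genes. Apitolisib had the lowest list median of all 58 CKIs after LPS, -0.21 below the median of start CREs, followed among these compounds by Omipalisib (-0.14), AZD2014 (-0.12), BGT226 (-0.10) and PF04691502 (-0.04). At Pgk1 Apitolisib had 74, 109, 112 and 80 through the LPS time course, each below the median of the other CKIs (125, 141.5, 138 and 163), and below the DMSO libraries (151 to 229).

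Of 25 genes of MYC and ribosome biogenesis, Ddx21, a nucleolar helicase, was lower after LPS (-0.41, adjusted p = 0.022), after IL-4 (-0.47, adjusted p = 0.017) and in UT (-0.59, adjusted p = 0.017), and all 5 compounds had negative Ddx21 differences in each. Wdr12 and Nop56 were also called lower after LPS. Among 25 ATF4 targets of amino acid metabolism, Mthfd2 was lower after LPS (-0.46, adjusted p = 0.023), Ddit4 after IL-4, and the arginine transporter Slc7a1 (-0.56, adjusted p = 0.044) and Aars (-0.39, adjusted p = 0.044) in UT. After LPS 5.07% of start CREs were called lower, so 1 of 25 is near that share. ATF4 list medians were -0.16, -0.08 and -0.12 in LPS, IL-4 and UT, beside -0.13, -0.05 and -0.03 for start CREs.

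Few inflammatory genes were called, as at start CREs in general. Of 34 NF-kB genes 0 passed after LPS, and of 29 AP-1 and immediate early genes 0 passed in any condition. Of all start CREs 5.23% were called after LPS, 0.825% after IL-4 and 1.69% in UT, so these counts say little about the genes. LPS list medians were -0.18 for NF-kB, -0.18 for AP-1 and -0.21 for interferon genes, beside -0.13 for start CREs. With run and contrast together they were 0.04 for each list, beside -0.01. At an unadjusted p under 0.05, 16370 of all CREs were found after LPS, 5794 after IL-4 and 7439 in UT. Il10, an anti-inflammatory cytokine (chr1:131018841-131022520), fell after IL-4 (-0.49, SE 0.08, adjusted p = 0.00074) and in UT (-0.51, SE 0.11, adjusted p = 0.0054). With limma, the Il10 call after IL-4 was lost without Omipalisib (adjusted p = 0.19) or BGT226 (0.086), and that in UT without Omipalisib (0.070) or PF04691502 (0.30). After LPS its difference was -0.17 and did not pass. Ifnb1, the gene of interferon beta, was the single called gene of 31 interferon genes after LPS (-0.37, SE 0.11, adjusted p = 0.042). It was not called with run, contrast or quantile normalization (limma adjusted p from 0.051 to 0.26). The Ifnb1 call was also lost without Omipalisib (limma adjusted p = 0.36) or AZD2014 (0.22). Its difference was -0.83 with Omipalisib, -0.64 with AZD2014, -0.29 with BGT226, -0.18 with Apitolisib and 0.08 with PF04691502. The paper reports raised Ifnb1 RNA after LPS with several inhibitors, Omipalisib and BGT226 among them, relative to DMSO. The test here was of H3K27ac against the other CKIs, so the comparisons differ.

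At Il10 after IL-4, Omipalisib had 155, 255, 150 and 181 and BGT226 230, 211, 163 and 156, against medians of 387, 371.5, 343 and 316 in the other CKIs and 248 to 352 in DMSO. In 6 of these 8 libraries the Il10 value was also below the lowest of the other CKIs (224, 229, 205 and 199 at the 4 times). PF04691502 ran from 242 to 358, Apitolisib from 294 to 377 and AZD2014 from 225 to 343.

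Il12b, Susd6, Hk3 and Il1rl2 were not called in any condition, nor was the CRE over the start of Fpr3, which lies nearest to Fpr2 (109 bp) and cannot be given to either gene, nor the CRE nearest to Brinp3, whose LPS difference was -0.82 (SE 0.32, adjusted p = 0.10). Of 27 genes of the IL-4 and STAT6 programme 0 were called after IL-4, whereas Arg1, arginase (-0.62, adjusted p = 0.030), and Ch25h (-0.46, adjusted p = 0.044) were lower in UT. Of 16 macrophage genes Aif1 was lower after LPS (-0.43) and IL-4 (-0.34), Cebpb higher after IL-4 (0.30), and Cx3cr1 (-0.54) and Fcgr1 (-0.40) lower in UT. CREs that LPS induced in DMSO (14680, of 27127 regulated CREs, 53.5% of 50697 tested) had a median group difference of -0.03, beside 0.03 over all tested, and those that IL-4 induced (6415, of 11611 regulated, 24.7% of 47018) one of -0.02 beside 0.00. By compound the LPS-induced median was -0.06 with Omipalisib, 0.06 with PF04691502, -0.05 with BGT226, 0.10 with Apitolisib and -0.17 with AZD2014.

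In UT cells, where no stimulus was given, the largest rise and the largest falls exceeded those after LPS or IL-4, and 13 named results were called without Omipalisib, all in UT. A UT value rests on 1 library for each of these compounds, or 2 for Apitolisib, and a value after LPS or IL-4 on 4 or 5. Sizes in UT and after a stimulus are therefore not on equal terms. The largest rises were near Ahi1 (1.18, SE 0.22), in an intron of Dock9 (1.08, SE 0.22) and at the Ccnd3 start (1.08, SE 0.19, adjusted p = 0.00025). The largest falls were in an intergenic CRE nearest to Lpl, lipoprotein lipase (-1.87, SE 0.29, adjusted p = 3.9e-05, and -1.30, adjusted p = 0.010, without PF04691502), an intron of Ptprk (-1.56, SE 0.26) and a CRE nearest to Atp6v1b2 (-1.46, SE 0.21, adjusted p = 2.1e-05). Ahi1, Dock9, Ccnd3, Pgpep1l, Lpl, Ptprk, Atp6v1b2, Ccnb2, Nrp1 and Tmem252 passed the test under all 12 alternative settings. With 1 library per compound, except for Apitolisib, these values have no replicate within a compound.

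At the Ccnd3 start (chr17:47504314-47505904) the UT values were 224 with Omipalisib, 239 with PF04691502, 261 with BGT226, 122 and 201 with Apitolisib and 205 with AZD2014. DMSO had 112 and 117, and the other CKIs ran from 42 to 182 with a median of 99. All 6 Ccnd3 values were above DMSO, and 5 of 6 above every other CKI library. After IL-4 Ccnd3 was at 181, 178, 239, 131 and 214 at 4 h with Omipalisib, PF04691502, BGT226, Apitolisib and AZD2014, beside 99 and 84 in DMSO.

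The CRE nearest to Lpl (chr8:68913885-68915510, 34206 bp from the gene's nearest start) had 16 with Omipalisib, 0 with PF04691502, 23 with BGT226, 50 and 25 with Apitolisib and 69 with AZD2014. The Omipalisib value stands for 4 reads, and at the PF04691502 value of 0, where 1 read is worth 8.53, its log2 difference (-4.16) depends on the pseudocount. DMSO had 81 in both libraries, and the other CKIs ran from 18 to 161 with a median of 88. A second CRE nearest to Lpl (chr8:68953158-68955016), named for IL-4 (-0.89, SE 0.18, adjusted p = 0.0080), had in UT 47 with Omipalisib, 60 with PF04691502, 47 with BGT226, 101 and 99 with Apitolisib and 99 with AZD2014, and 156 and 145 in DMSO. The Atp6v1b2 CRE lies on the same stretch (chr8:69003986-69008985) and had in UT 67 with Omipalisib, 119 with PF04691502, 161 with BGT226, 260 and 233 with Apitolisib and 288 with AZD2014, beside 482 and 478 in DMSO and a median of 467 in the other CKIs. These 3 CREs lie on the same stretch of the chromosome, and each was lowest in UT with Omipalisib, PF04691502 or BGT226. The Atp6v1b2 CRE was also lower after IL-4 (-0.84, SE 0.18, adjusted p = 0.010), where BGT226 had 143, 150, 88 and 111 and Omipalisib 155, 143, 78 and 91.

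**Figure D4:**
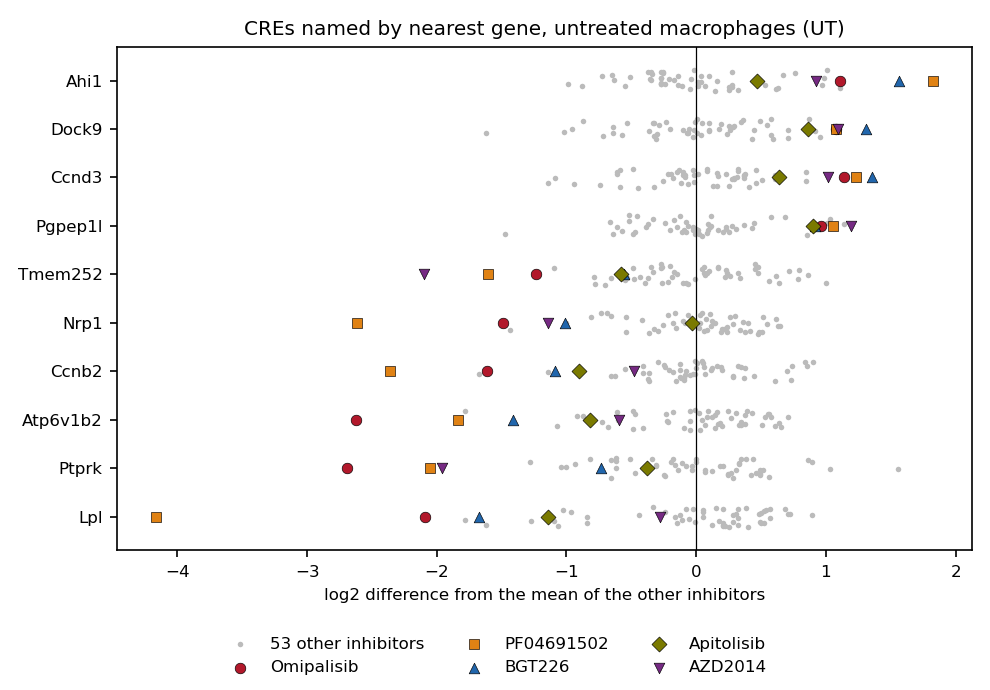
Log2 difference from the mean of the other inhibitors (horizontal axis) in UT at the CREs that passed under all alternative settings, named by their nearest gene. Grey points are the 53 other CKIs and coloured symbols the 5 compounds; at Lpl the mean difference is -1.87 and at Ccnd3 it is 1.08.

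Between conditions the called CREs overlapped in part. After LPS and IL-4, 13 higher CREs were shared (2.62% of those of LPS and 13.5% of those of IL-4) and 62 lower ones (5.27% and 17.1%). LPS and UT shared 31 higher (6.25% and 8.36%) and 131 lower ones (11.1% and 14.1%). IL-4 and UT shared 39 higher (40.6% and 10.5%) and 129 lower ones (35.5% and 13.9%). In all 3 conditions 9 higher and 30 lower CREs were called. Of all CREs tested, 0.838% were called higher and 1.99% lower after LPS. The shares were 0.162% and 0.614% after IL-4, and 0.628% and 1.57% in UT. The difference of the group effect itself, a test chosen after seeing the data, was called with limma at 480 CREs between LPS and UT (0.812%), 5 between IL-4 and UT (0.00846%) and 32 between LPS and IL-4 (0.0541%). The LPS and IL-4 tests use separate libraries of the same compounds.

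The largest named CREs after LPS and IL-4 lay mostly away from starts. After LPS the largest falls were nearest to Dmac1 (-1.12, SE 0.20, adjusted p = 0.0017), at an exon of Gm6377 (-1.03, SE 0.20) and in an intron of Foxn2 (-1.0, SE 0.25), and in all of them Omipalisib and AZD2014 had the largest differences (-1.67 and -2.60, -2.50 and -2.03, -2.65 and -1.87). The largest rises, nearest to Chrm3 (1.09, SE 0.33, adjusted p = 0.049) and in an intron of Ammecr1l (1.05, SE 0.24, adjusted p = 0.0098), were no longer called with contrast as a covariate. After IL-4 the largest fall was in an intron of Rgsl1 (-1.02, SE 0.21, adjusted p = 0.0082) and the largest rise in an intron of Shld1 (0.79, SE 0.16, adjusted p = 0.0067). The Rgsl1 difference was -3.18 with Omipalisib, -0.98 with AZD2014, -0.69 with BGT226, -0.23 with PF04691502 and -0.03 with Apitolisib.

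Taken singly against the other CKIs after LPS, Omipalisib had 16452 called CREs (27.8%), AZD2014 8890 (15%), BGT226 1705 (2.88%), PF04691502 1158 (1.96%) and Apitolisib 10 (0.0169%). Against the CKIs of the same run alone they were 5276, 937, 1954, 177 and 1. The counts after IL-4 were 12530 (21.2%), 1742 (2.94%), 5839 (9.87%), 429 (0.725%) and 0, and within the run 2667, 531, 5867, 102 and 0. For Apitolisib after IL-4, where limma called 0, 3698 CREs had an unadjusted p under 0.05 and 4 were called after quantile normalization. Omipalisib and AZD2014, with the most calls after LPS, had the lowest median contrast there (6.26 and 6.91, beside 11.1 to 13.9 for the others), and the part of contrast in these counts was not tested.

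The share of higher calls moved with the scaling. With Omipalisib 11610 of the LPS calls were higher (19.6% of CREs) and 4842 lower (8.18%), and after quantile normalization 43.5% of 12539 were higher. After IL-4 they were 8762 higher (14.8%) and 3768 lower (6.37%), and after quantile normalization 40.3% of 10120 were higher. The BGT226 calls were 1024 higher (1.73%) and 681 lower (1.15%) after LPS. After IL-4 they were 2086 higher (3.53%) and 3753 lower (6.34%), and 62.6% of 3675 were higher after quantile normalization. PF04691502 had 71 higher (0.12%) and 1087 lower (1.84%) after LPS, and 72 higher (0.122%) and 357 lower (0.603%) after IL-4, and after quantile normalization 20.9% of 1314 and 28.9% of 128 were higher. AZD2014 had 2853 higher (4.82%) and 6037 lower (10.2%) after LPS, and 589 higher (0.996%) and 1153 lower (1.95%) after IL-4, and with a pseudocount of 1, 21.9% of 7947 and 22.1% of 1721 calls were higher. Apitolisib had 1 higher (0.00169%) and 9 lower (0.0152%) after LPS.

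Comparison within a run uses the same LPS libraries of a compound that chose its leading CREs, and changes only the reference compounds. Values after IL-4 rest on other libraries. BGT226 had leading CREs that were also called within its run and after IL-4. These were higher at a CRE in the untranslated region of Ctsk, the protease cathepsin K (1.88, SE 0.28; 2.32 within the run; 1.26 after IL-4), in an intron of Lgals3, the lectin galectin-3 (1.71, SE 0.29; 1.93; 1.17), and nearest to Prss38 (1.90, SE 0.26; 2.12; 1.17). They were lower at a CRE in the untranslated region of Prdm1, the repressor BLIMP1 (-1.54, SE 0.23; -1.55; -1.01), and nearest to Gtdc1 (-1.55, SE 0.18; -1.61; -0.87). A CRE in an intron of Mef2c, a MADS-box factor, was lower after LPS (-1.62, SE 0.31; -1.57 within the run) and had -0.33 after IL-4, which did not pass. Among the leading Omipalisib CREs also called within its run was one in an intron of Cblb, a ubiquitin ligase (-2.98, SE 0.36, and -2.20 within the run). Among those of AZD2014 was one in an intron of Sh3kbp1 (-2.68, SE 0.29, and -2.27 within the run). Of the Apitolisib calls, only the exon CRE of Rgsl1 passed within its run (-0.92, SE 0.17, and -0.98 within the run). The start of Plk2, a stress-linked kinase, had -0.82 (SE 0.18) and did not (adjusted p = 0.21). After IL-4 these leads did not pass: Cblb had -0.43 with Omipalisib (adjusted p = 0.32) and the Rgsl1 exon CRE -0.06 with Apitolisib (adjusted p = 0.91). Sh3kbp1 with AZD2014 had the opposite sign after IL-4 (0.56, adjusted p = 0.32). The PF04691502 leads after LPS, such as the start of Abca6 (1.57, SE 0.38), were not called within its run.

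**Figure D5:**
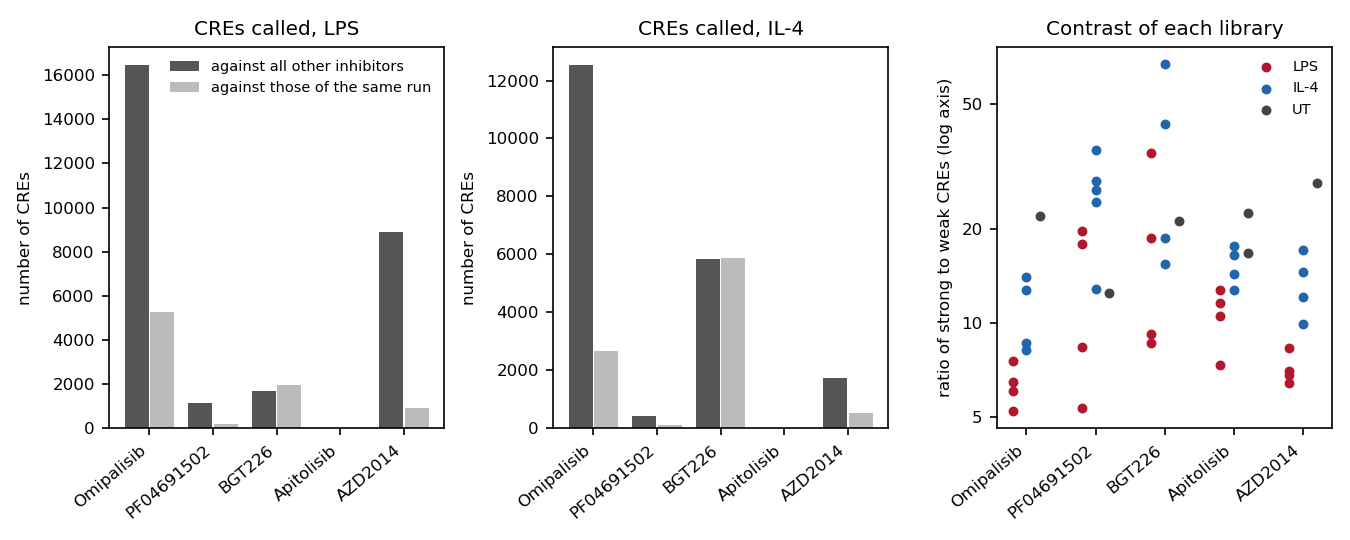
Left and middle, number of CREs called for each compound (vertical axis) against all other CKIs and against those of the same run, after LPS and IL-4. Right, contrast of each of the 47 libraries (log axis); Omipalisib, with 16452 calls after LPS, has LPS contrasts of 5.21 to 7.56.

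Against DMSO, many more CREs were called, and most were higher: 35380 with Omipalisib after LPS (59.8%), 32176 with AZD2014 (54.4%), 27855 with Apitolisib (47.1%), 23168 with PF04691502 (39.2%) and 20680 with BGT226 (35%). The median of all CREs was itself shifted, by 0.61 with Omipalisib, 0.58 with Apitolisib, 0.43 with PF04691502, 0.43 with BGT226 and 0.39 with AZD2014, so these counts hold a shift of the whole library. Quantile normalization gave 16635, 11100, 1851, 1263 and 2840 for the 5 in the same order, with 39.4% to 46.3% of calls higher. After IL-4, 34457, 29427, 29618, 13663 and 14113 were called (58.2%, 49.7%, 50.1%, 23.1% and 23.9%), and after quantile normalization 14573, 6711, 2742, 87 and 4024. DMSO stood outside the runs and had higher contrast (53 to 134), so DMSO and the run cannot be told apart here.

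The most alike inhibitors of the panel are AZD8186 and TG100115, which hit some of the PI3K isoforms and not MTOR, and GSK2110183 and MK2206, which hit AKT. The 5 compounds were compared with these 4 over all CREs with limma, on 1 value per compound, a comparison chosen after seeing the data and with doses that differed here as well. It called 0 CREs (0%) after LPS, IL-4 or in UT, while 9459, 2186 and 5989 had an unadjusted p under 0.05. Genes called above were chosen for differing from all other CKIs, these 4 among them, so their means are set side by side as a description. At Fbxo32 in UT the mean log2 difference from the other CKIs was 0.82 with the 5 and -0.11 with the 4 (limma adjusted p = 0.11). At Idi1 after IL-4 the means were -0.60 and 0.01, and at Cyp51 after LPS -0.50 and -0.03 (limma adjusted p = 0.26). Other called genes lay closer after LPS: the means were -0.35 and -0.24 at Acly (limma adjusted p = 0.75), and -0.34 and -0.13 at Srebf2 (0.53). At Hmgcs1 after LPS the mean with the 5 was -0.44. MK2206 was lower there (-0.52), and TG100115 (-0.21), AZD8186 (-0.05) and GSK2110183 (0.26) were higher.

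That no CRE passed with 5 compounds against 4 does not show that they act alike. At Hmgcs1 after LPS the difference was -0.31 with a 95% interval of -0.69 to 0.08. By the SREBP list after LPS, AZD8186 was at rank 54 from the lowest, MK2206 at 56, TG100115 at 21 and GSK2110183 at 9.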

How the data were processed

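The table holds a score per CRE and library: before deposit the authors cut adapters, shortened the single-end reads to 51 bp, aligned them to mm10 with ShortStack, counted those around ATAC-seq peaks, scaled on invariant peaks and deposited the normalized read counts, rounded to whole numbers, for 59190 CREs and 564 libraries. As these are not raw counts, limma 3.58.1 (R 4.3.3, with trend) was applied to log2(value + 5) for CREs with a mean of at least 10. The group test used 1 coefficient per compound from a model with time and compound; each compound was also tested against the other CKIs and against DMSO in a fit over libraries, called at an adjusted p under 0.05 and a log2 difference over 0.5 in size. CREs regulated by LPS or IL-4 in DMSO were called with a moderated F test at an adjusted p under 0.01 and a log2 change over 1 in size. All adjusted p-values without another name are from limma with Benjamini-Hochberg adjustment over all CREs, and the scripts were tested on simulated data.

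CREs were annotated with GENCODE vM21. Members and gene lists were chosen with earlier results of these data known. Named CREs were the 10 largest rises and falls per condition with all 5 compounds on the same side of the median of the others (1 per nearest gene), up to 6 called genes per list (the 3 lowest p where fewer than 3 were called), 8 genes always given, and per compound the 5 largest rises and falls after LPS. Alternatives were quantile normalization, a pseudocount of 1, no filter, run, contrast, the same run alone, and leaving out compounds, DMSO replicates or repeated libraries; run together with contrast was chosen after seeing the data. The run is a reading of the column order. Some genes that are counted in the lists are not reported here by name.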

Additional observations from a re-analysis of the deposited data

Results flagged for a closer look

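The difference between these compounds and the other CKIs was itself compared between conditions, with limma over all CREs, and 12 named results passed at an adjusted p under 0.05. Most were CREs that were lower in UT and less so after LPS. CREs named as the largest falls of a condition were chosen on values that also enter this difference. The pattern therefore follows in part from that choice. The LPS minus UT difference was 1.50 near Lpl (-0.37 after LPS, -1.87 in UT), 0.82 near Atp6v1b2 (-0.64 and -1.46) and 1.11 near Nrp1 (-0.15 and -1.26). It was 0.90 in an intron of Tmem252 (-0.31 and -1.22), 1.29 near Olfr922 (-0.15 and -1.44) and 1.39 in an intron of St3gal6 (-0.03 and -1.42). It was 0.91 near Gdpd2 (-0.27 and -1.18) and 0.59 at the start of Cx3cr1 (0.04 and -0.54).

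Near Cdyl the LPS minus UT difference was 1.66, with 0.38 after LPS and -1.28 in UT. St3gal6 also differed between IL-4 and UT, by 1.49. Between LPS and IL-4, the Gm6377 exon CRE differed by -1.04 (-1.03 after LPS and 0.01 after IL-4), and the CRE near Lsp1 by -0.67 (-0.99 and -0.33). UT has 6 libraries of these compounds, and some of these CREs had a compound at a value of 0 there, for which the difference depends on the pseudocount: PF04691502 near Lpl (-4.16), in St3gal6 (-4.46) and near Olfr922, Omipalisib near Cdyl (-4.06) and AZD2014 near Olfr922.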

How the results depend on the processing

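The number of CREs called for the 5 compounds against the other CKIs after LPS (1674) was 921 with run, 167 with contrast, 1056 with run and contrast, and 673 with a log2 difference over 0.5 (59.9% higher, beside 29.6% of all). After IL-4 (459) these were 1417, 923, 1685 and 115, and in UT (1300) run with contrast gave 2184. Leaving out 1 compound gave 16 (without Omipalisib) to 3415 (without BGT226) after LPS, 0 (without Omipalisib) to 1184 (without Apitolisib) after IL-4, and 274 (without Omipalisib) to 2171 (without Apitolisib) in UT; leaving out AZD2014 gave 65 after LPS, BGT226 8 after IL-4 and PF04691502 434 in UT. Of 112 called named results, 13 passed without Omipalisib, 62 without AZD2014, 66 without BGT226, 80 with contrast, 91 with run and 91 after quantile normalization, and none of these 112 changed direction; named results that were not called did so under some settings, such as Il10 after LPS (-0.17, and 0.12 with contrast).

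Against the other CKIs of the same run, Omipalisib had 5276 calls after LPS and 2667 after IL-4, PF04691502 177 and 102, AZD2014 937 and 531, and Apitolisib 1 after LPS. Quantile normalization gave Apitolisib 19 after LPS and 4 after IL-4, PF04691502 128 and BGT226 3675 after IL-4, and a pseudocount of 1 gave PF04691502 667 after IL-4. Against DMSO, quantile normalization gave Omipalisib 16635 after LPS and 14573 after IL-4, PF04691502 1263 and 87, BGT226 2840 and 4024, Apitolisib 1851 and 2742, and AZD2014 11100 and 6711. Without 1 DMSO replicate, PF04691502 had 15050 to 17530 calls after LPS and 4068 to 5655 after IL-4, and BGT226 12278 to 13720 and 7847 to 8509, and with UT libraries in the fit PF04691502 had 21346 after IL-4. CREs regulated by IL-4 in DMSO (11611) were 5923 after quantile normalization. The cause of these changes was not tested.

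Only DMSO had numbered replicates. The numbers did not pair its libraries (0 of 36 pairs correlated above 0.1), and a replicate block gave 27066 LPS-regulated CREs against 27127, and 11611 IL-4-regulated CREs against 11611. No paired analysis was possible for the inhibitors because they carry no replicate numbers. Low depth limits the smallest values: in Omipalisib LPS libraries 1 read is worth 9.08 to 11.6.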
